A study of Homo sapiens with 6 samples.

Results

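The 8 genes described here, POU5F1, SOX2, NANOG, PRDM14, SALL4, ZFP42, DPPA4 and ZSCAN10, are the core pluripotency transcription factors, taken as a list of names and found by symbol among 58735 genes of the deposited expression table. RNA was sequenced from H9, a long-established line of human embryonic stem cells, at day 0, then at days 2, 3 and 4, at day 6 and at day 30 of its differentiation into cardiac organoids, 3-dimensional cultures of heart cell types. Each day is 1 library from 10 harvested organoids, per the labels, which call the cells embryonic stem cells on every day and name no inducing agent, genotype change or transgene. All 6 libraries come from this line, and the labels do not say whether the cells of day 0 were already aggregated. The course has no second line, no undifferentiated culture kept alongside and no repeat.

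Pluripotency is the capacity of a cell to form every tissue of the embryo proper, and a small set of transcription factors keeps it in place. POU5F1, also called OCT4, and SOX2 bind DNA as a pair, and with NANOG they occupy their own regulatory regions and those of each other, so that the network sustains itself while signals permit. PRDM14, SALL4, ZFP42, also called REX1, DPPA4 and ZSCAN10 act around that centre, and most of the set is silenced as cells enter a germ layer.

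POU factors such as POU5F1 recognise the octamer, and SOX factors recognise a short element that is often placed directly beside it. RefSeq promoter windows, from 250 bases before to 50 bases after a gene's start on GRCh38.p14, were matched for 5 of the 8 members, SOX2, NANOG, ZFP42, DPPA4 and ZSCAN10. The windows were searched on both strands for the full octamer ATGCAAAT, its core TGCAAA, the SOX element CATTGT, the TATA box TATAAA and the GC box GGGCGG, and matches of the octamer and its core may overlap. The 150 bases before the start are shown for the 3 members with a core octamer and, as a contrast, for ZFP42, which has none. Capitals mark each match that lies wholly inside the printed stretch, and a match on the opposite strand is seen as its reverse complement.
NANOG (chr12:7789252-7789401, plus strand): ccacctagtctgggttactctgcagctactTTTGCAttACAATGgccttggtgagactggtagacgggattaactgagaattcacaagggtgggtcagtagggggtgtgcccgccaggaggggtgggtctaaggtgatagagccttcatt
SOX2 (chr3:181711775-181711924, plus strand): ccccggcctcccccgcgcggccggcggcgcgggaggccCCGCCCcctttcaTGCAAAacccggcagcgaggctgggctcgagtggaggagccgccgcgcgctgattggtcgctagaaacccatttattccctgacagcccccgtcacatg
DPPA4 (chr3:109337547-109337696, minus strand): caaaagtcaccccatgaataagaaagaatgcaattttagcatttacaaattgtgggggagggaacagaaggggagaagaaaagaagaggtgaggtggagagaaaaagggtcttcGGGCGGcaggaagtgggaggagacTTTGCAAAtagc
ZFP42 (chr4:187995621-187995770, plus strand): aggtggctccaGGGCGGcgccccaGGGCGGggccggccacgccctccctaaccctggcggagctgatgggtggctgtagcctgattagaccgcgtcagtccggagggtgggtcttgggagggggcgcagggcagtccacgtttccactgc

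In the NANOG window the core octamer lay 120 to 115 bases before the start and the SOX element 112 to 107 bases before it, both on the minus strand, with 2 bases between them, and a TATA box match spanned the start itself. Starts are RefSeq's: the printed NANOG stretch lies inside the gene's GENCODE span, which opens farther upstream at 7787794, and the core octamers of DPPA4 lie inside its GENCODE span, which reaches 109337572. SOX2 had a core octamer 99 to 94 bases before its start. DPPA4 had a palindromic stretch matched on both strands, the first match beginning 12 bases and the second 10 bases before the start, so that its matches overlap. ZFP42 and ZSCAN10 held GC boxes, 3 in ZFP42 and 1 in ZSCAN10, and no core octamer or SOX element in the window. SOX2 and DPPA4 also held 1 GC box each, so 4 of the 5 windows had one. The full octamer was found in none of the 5 windows and in 1.77% of all 35116 RefSeq promoter windows of this length. A core octamer was found in 14.6% of them, a SOX element in 10.8%, a TATA box in 11.5% and a GC box in 45.0%. The arrangement of a SOX element 2 bases before a core octamer, taken as it stands in NANOG, was found in 3 of the 35116 including NANOG, and no other spacing was counted. The windows of NANOG and DPPA4 were low in GC, at 46.7% and 45.3%, and that of ZFP42 was high, at 69.3%, against a median of 58.7% over all windows. These matches describe the letters of the windows, and binding was not measured.

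**Figure D1:**
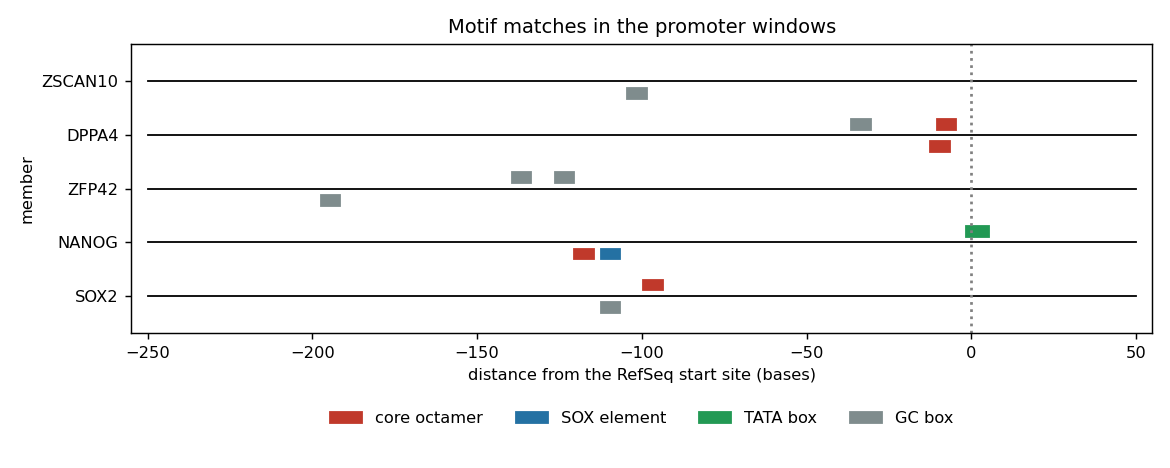
Motif matches in the promoter windows of 5 members, drawn by distance from the RefSeq start site in bases, above the line for the plus strand of the gene and below it for the minus strand. The core octamer and SOX element of NANOG stand side by side, with a TATA box match at its start. SOX2 and DPPA4 have core octamers and a GC box each, and ZFP42 and ZSCAN10 have GC boxes only.

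Levels are given as FPKM, reads per kilobase of gene length relative to a library denominator set by the authors. Recovered reads totalled between 13500887 and 15526924 per library, and brackets after a fold give its 95% interval from these reads, which covers counting error only. Each day being 1 library, no difference between days could be tested over samples, and none carries a p-value. A gene was called higher or lower when log2(FPKM + 1) differed by at least 1 and its FPKM was at least 1 in either library, and "fell" is used below only of such calls. In these bulk libraries fewer cells expressing a gene and less RNA per cell cannot be told apart. The labelled cell type held at day 0 by the 6 markers LIN28A, TDGF1, L1TD1, DNMT3B, TERF1 and PODXL. All 6 had an FPKM of at least 1 there and summed to 1465 FPKM. On days 2, 3, 4 and 6 all 6 markers were also at or above 1, so this criterion does not mark day 0 alone. Their sums on those days were 739, 654, 647 and 626 FPKM. The sum at day 6 was mostly LIN28A at 275 and PODXL at 270 FPKM. On that day 4 of the 6 markers were called lower than at day 0 and 0 higher, against 13.1% and 14.9% of genes. The median difference of the 6 markers was -2.97. At day 30 their sum was 26.3 FPKM, with 3 of 6 at or above 1, and 6 of 6 cardiomyocyte markers were at or above 1, with a sum of 197 FPKM against 2.19 at day 0.

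The members started from unequal levels. At day 0 POU5F1 stood at 561 FPKM and DPPA4 at 333, followed by ZSCAN10 at 77.2, SOX2 at 74.7, ZFP42 at 42.5, SALL4 at 41.8, PRDM14 at 31.0 and NANOG at 23.4. The counting intervals of ZSCAN10 and SOX2 overlapped, as did those of ZFP42 and SALL4, and all other neighbours in this order were apart. The order rests on the table's gene lengths, which for all 8 members equal the union of the exons in GENCODE release 29. For POU5F1 that union is 2896 bases against 1420 in its main transcript, and on the latter length its day 0 level would be 1145 FPKM. For DPPA4 the lengths are 4996 and 2817 bases, with 590 FPKM on the shorter one. For ZSCAN10 and SALL4 the ratio of the lengths is 1.21 and 1.11, and for NANOG, PRDM14, ZFP42 and SOX2 it is at most 1.04. The last place of NANOG also depends on how the reads of its copies were assigned. NANOGP8 and NANOGP1 held 35.8% of the reads of these copies and NANOG together at day 0.

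By day 30 all 8 were called lower than at day 0, at very different rates. On day 2, 3 of 8 members were called lower than at day 0, where 7.75% of all 16019 genes tested were called lower, and none was called higher, where 8.78% were. On day 3 it was 7 of 8 lower against 10.7% of genes, on day 4 7 of 8 against 12.6%, on day 6 6 of 8 against 13.1% and on day 30 8 of 8 against 19.1%. No member was called higher on these days, where 13.3%, 15.3%, 14.9% and 25.9% of genes were. On the log2(FPKM + 1) scale the median difference of the members was -0.88 on day 2, where that of all genes tested was -0.03. It was -2.72 against -0.01 on day 3, -3.85 against 0.00 on day 4, -4.28 against -0.02 on day 6 and -5.58 against 0.13 on day 30. These 5 comparisons share the day 0 library. Under 10% of the day 0 level were 0 members on day 2, 3 on day 3, 5 on day 4, 5 on day 6 and 7 on day 30. Among the 14357 genes with an FPKM of at least 1 at day 0, the shares under 10% were 2.2%, 3.7%, 3.98%, 4.88% and 7.56% on these days. Of the 8 members 6 did not rise at any step from day 0 to day 30, against 2.09% of the 20481 genes that reached an FPKM of 1, and the exceptions were SALL4 and ZFP42.

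**Figure D2:**
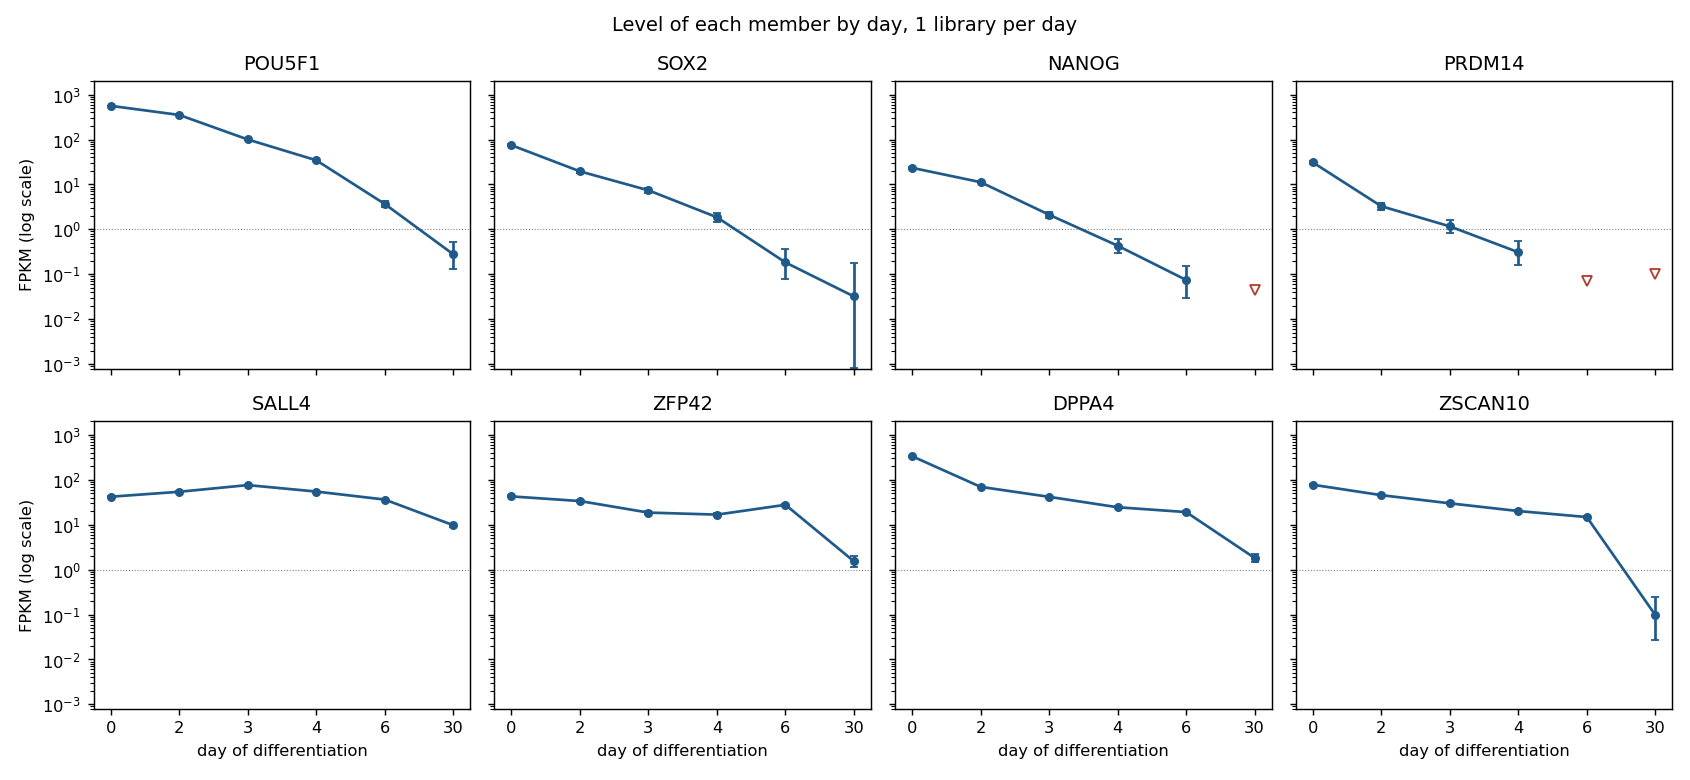
FPKM (log axis) of each member by day of differentiation (days spaced evenly, not to scale), 1 point per library with its 95% counting interval, open triangles marking the level of 3 reads where a library had 0 and the dotted line an FPKM of 1. POU5F1, SOX2, NANOG, PRDM14, DPPA4 and ZSCAN10 run down from the first step. SALL4 is highest on day 3 at 75.8 FPKM, and ZFP42 stands higher on day 6 than on days 3 and 4.

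POU5F1 (ENSG00000204531, chromosome 6, 31164337 to 31180731, minus strand) encodes the POU-homeodomain factor at the centre of the network. Its level was 561 FPKM at day 0, then 352 (day 2), 100.2 (day 3), 34.5 (day 4), 3.68 (day 6) and 0.280 (day 30). Every library was thus lower than the one before it, and the first step, 1.60-fold lower (1.56 to 1.63), was the smallest of the 5 and was not called. POU5F1 fell in each of the other 4 steps, 3.51-fold (3.39 to 3.63) from day 2 to day 3, 2.90-fold (2.74 to 3.08) to day 4 and 9.39-fold (8.06 to 11.0) to day 6. Between day 6 and day 30 it was 13.1-fold lower (6.99 to 27.9), resting on 10 reads at day 30, and 2.33-fold lower with the reads of its copies added. Among 1548 protein-coding genes with a transcription factor family in the table, it ranked 2 by FPKM at day 0, 4 at day 2, 16 at day 3, 52 at day 4, 636 at day 6 and 1162 at day 30.

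SOX2 (ENSG00000181449, chromosome 3, 181711924 to 181714436, plus strand) encodes the HMG-box partner of POU5F1 and is a single exon. It had 74.7 FPKM at day 0, 19.6 at day 2, 7.41 at day 3, 1.86 at day 4, 0.184 at day 6 and 0.0322 at day 30, the last from 1 read. SOX2 fell in each of the first 4 steps, 3.82-fold (3.53 to 4.14), 2.64-fold (2.30 to 3.05), 3.98-fold (3.06 to 5.22) and 10.1-fold (4.88 to 24.3). SOX2 was thus reduced in the first step where POU5F1 was not called, and the FPKM ratio of POU5F1 to SOX2 within a library, which does not depend on scaling between libraries, moved from 7.51 (7.22 to 7.82) at day 0 to 18.0 (16.7 to 19.3) at day 2. It was 13.5 (12.0 to 15.4) at day 3, 18.5 (14.7 to 23.7) at day 4 and 20.0 (9.92 to 46.9) at day 6. The last 2 values overlap each other and that of day 2 within counting error. SOX2 lies inside SOX2-OT, a long noncoding gene on the same strand that was at or below 0.113 FPKM in every library.

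NANOG (ENSG00000111704, chromosome 12, 7787794 to 7799141, plus strand), a homeodomain factor that guards against differentiation, had 23.4, 11.3, 2.12, 0.434 and 0.0751 FPKM on days 0, 2, 3, 4 and 6 and 0 reads at day 30. Its first step, 2.08-fold lower (1.93 to 2.25), missed the rule narrowly with a difference of -0.997, and was called under upper-quartile scaling at -1.06. With the reads of its copies added, this step was 2.30-fold lower (2.16 to 2.45). NANOG fell 5.31-fold (4.49 to 6.30) from day 2 to day 3 and 4.88-fold (3.40 to 7.18) from day 3 to day 4. At day 30 it was 521-fold lower than at day 0, taking 3 reads there as the floor. The upper end of its 95% counting interval at day 30 was 0.236% of day 0. The ratio of POU5F1 to NANOG went from 23.9 (22.8 to 25.1) at day 0 to 79.5 (57.4 to 113) at day 4 and was 48.9 (23.3 to 123) at day 6.

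PRDM14 (ENSG00000147596, chromosome 8, 70051651 to 70071693, minus strand), a zinc finger and PR-domain factor known for repressing differentiation genes, was the member that dropped most steeply at first. It had 31.0 FPKM at day 0, 3.28 at day 2, 1.17 at day 3 and 0.311 at day 4, and 0 reads at days 6 and 30. From day 0 to day 2 it fell 9.47-fold (7.88 to 11.5). With 3 reads taken as the floor, PRDM14 at day 6 was 437-fold lower than at day 0. The upper end of its 95% counting interval at day 6 was 0.282% of day 0. Its later steps, 2.80-fold (1.96 to 4.09) and 3.76-fold (1.94 to 7.87) lower, were not called at these low levels. Of 1548 transcription factor genes PRDM14 ranked 54 at day 0 and 664 at day 2.

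DPPA4 (ENSG00000121570, chromosome 3, 109326141 to 109337572, minus strand) encodes a SAP-domain chromatin protein of early embryonic cells and has no transcription factor family in the table. It had 333 FPKM at day 0, 69.3 at day 2, 41.5 at day 3, 24.4 at day 4, 19.0 at day 6 and 1.81 at day 30. The first step was 4.80-fold lower (4.67 to 4.95) and was called, and the next 3, between 1.28- and 1.71-fold lower, were not. DPPA4 fell again between day 6 and day 30, 10.5-fold (8.66 to 12.8). The last step spans far more days than the others.

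ZSCAN10 (ENSG00000130182, chromosome 16, 3088890 to 3099317, minus strand), a SCAN-domain zinc finger factor that partners POU5F1 in stem cells, had 77.2 FPKM at day 0, 45.3 at day 2, 29.8 at day 3, 20.1 at day 4 and 14.7 at day 6. Each of these steps was between 1.36- and 1.70-fold lower, and no single one was called, although day 3 was already called against day 0. At day 30 ZSCAN10 had 0.0976 FPKM from 4 reads, and the step from day 6 was 151-fold lower (58.8 to 556). Of the members with reads in both libraries this was the largest fold over that interval. That of SOX2, 5.72-fold lower (0.766 to 254) from 8 reads to 1, overlaps it within counting error.

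ZFP42 (ENSG00000179059, chromosome 4, 187995771 to 188005050, plus strand), a zinc finger factor related to YY1 and a classical marker of undifferentiated cells, had 42.5, 33.5, 18.5, 16.7, 27.6 and 1.52 FPKM over the 6 libraries in order of day. Day 6 was 1.65-fold higher than day 4 (1.51 to 1.82), with a difference of 0.69 that was not called, and it was higher under each of the 3 other scalings between libraries. Against day 0 ZFP42 was called lower on days 3 and 4, 2.29-fold (2.10 to 2.51) and 2.54-fold (2.33 to 2.78), the first of which was not called under TPM scaling (difference -0.86), and not on day 6, at 1.54-fold lower (1.43 to 1.66). It then fell 18.1-fold (13.7 to 24.5) to day 30. Between days 4 and 6 the summed FPKM of 6 cardiomyocyte markers went from 8.98 to 357, of which MYL7 made 336 at day 6. That of 8 endoderm markers went from 293 to 189. The part of either set in the ZFP42 level was not tested.

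SALL4 (ENSG00000101115, chromosome 20, 51782331 to 51802520, minus strand), a zinc finger factor that works with the NuRD corepressor and is also active in early mesoderm and endoderm, took the opposite course at first. It had 41.8 FPKM at day 0, 53.8 at day 2, 75.8 at day 3, 54.4 at day 4, 36.1 at day 6 and 9.70 at day 30. The level on day 3 was 1.81-fold higher than on day 0 (1.74 to 1.89), with a difference of 0.84 that was not called under the deposited scaling and was called under TPM scaling. From day 3 to day 4 it was 1.39-fold lower (1.34 to 1.45) and from day 4 to day 6 1.51-fold lower (1.44 to 1.57), neither of which was called. SALL4 fell 3.72-fold (3.43 to 4.04) from day 6 to day 30, where it kept 23.2% (21.4 to 25.2) of its day 0 level. Its small difference between day 6 and day 0, a ratio of 0.864 in the deposited values, turned to 1.12 under TPM scaling. Over days 0, 2, 3, 4 and 6 the summed endoderm markers were 0.564, 122, 268, 293 and 189 FPKM, and their part in the SALL4 level was not tested.

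**Figure D3:**
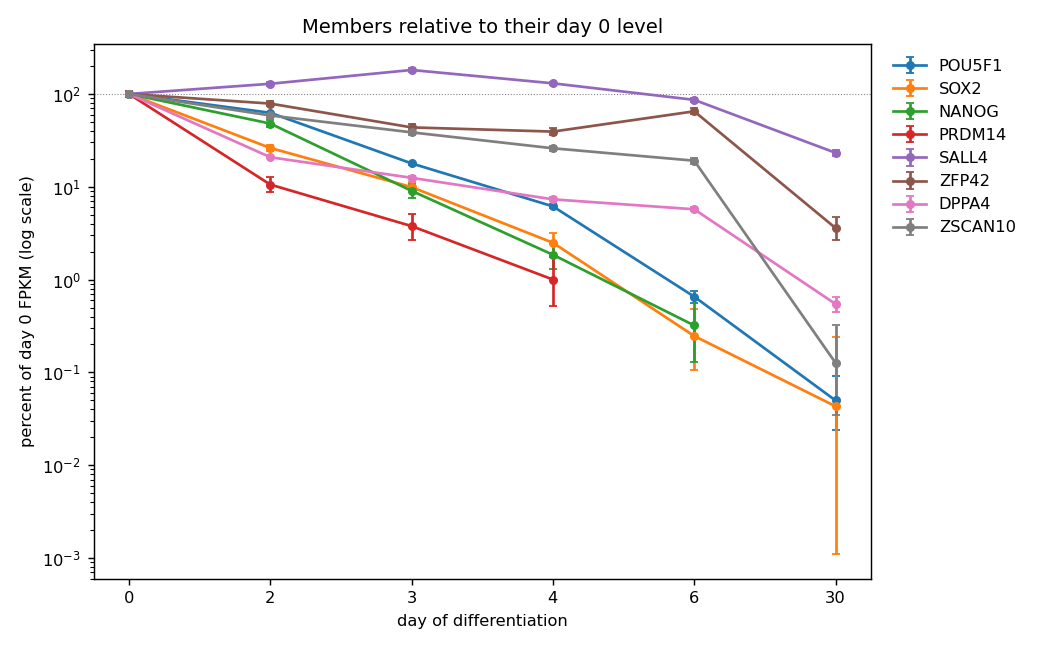
Each member as a percent of its own day 0 FPKM (log axis) by day (spaced evenly), with 95% counting intervals and points at 0 reads left out. At day 2 the members spread from PRDM14 at 10.6% to SALL4 at 129%, and at day 6 from SOX2 at 0.246% among those with reads to SALL4 at 86.4%.

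Set side by side as a percent of day 0, the order at day 2 was PRDM14 at 10.6%, DPPA4 at 20.8%, SOX2 at 26.2%, NANOG at 48.0%, ZSCAN10 at 58.7%, POU5F1 at 62.7%, ZFP42 at 78.8% and SALL4 at 129%. The intervals of ZSCAN10 and POU5F1 overlapped and all other neighbours were apart. By day 6 the order was PRDM14 at 0, SOX2 at 0.246%, NANOG at 0.320%, POU5F1 at 0.655%, DPPA4 at 5.72%, ZSCAN10 at 19.1%, ZFP42 at 65.0% and SALL4 at 86.4%, and the first 4 overlapped one another in turn. The 4 lowest at day 6 are thus POU5F1, SOX2, NANOG and PRDM14, each under 1%, against 2.55% of genes expressed at day 0. The other 4 kept more than 5% through day 6. The POU5F1 and DPPA4 order changed along the way, DPPA4 being lower on days 2 and 3 and POU5F1 lower on days 4, 6 and 30.

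These unequal courses changed the makeup of the set. Summed over the 8 members the level was 1185 FPKM at day 0, 588 at day 2, 277 at day 3, 153 at day 4, 101 at day 6 and 13.5 at day 30. POU5F1 made up 47.4% of the sum at day 0, 59.9% at day 2, 22.6% at day 4 and 3.62% at day 6. SALL4 made up 3.53% at day 0, 35.6% at day 6 and 72.1% at day 30. The ratio of SALL4 to POU5F1 was 0.0744 (0.0718 to 0.0771) at day 0, 0.756 (0.727 to 0.787) at day 3, 1.58 (1.49 to 1.67) at day 4 and 34.7 (18.8 to 72.7) at day 30. On the table's lengths the pair changed order between days 3 and 4. On main transcript lengths POU5F1 would still be higher at day 4, at 70.4 against 60.3 FPKM, and lower at day 6, at 7.50 against 40.03. The 7 members with a transcription factor family held 7.46% of the summed FPKM of all 1548 such genes at day 0, 3.89% at day 2, 1.93% at day 3, 1.04% at day 4, 0.758% at day 6 and 0.0800% at day 30.

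Between consecutive later days, 3 of 8 members were called lower from day 2 to day 3, against 4.98% of genes, and these were POU5F1, SOX2 and NANOG. The same 3 were called from day 3 to day 4, against 3.59%. From day 4 to day 6 the called members were POU5F1 and SOX2, 2 of the 6 that reached an FPKM of 1, against 6.71%. From day 6 to day 30 it was POU5F1, SALL4, ZFP42, DPPA4 and ZSCAN10, all 5 that reached an FPKM of 1, against 15.3%. Members that had already reached the floor could not be called in the late steps, so a member's absence there says nothing about its course. No member was called higher in any of these 4 steps, where 7.13%, 4.23%, 5.51% and 21% of genes were.

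**Figure D4:**
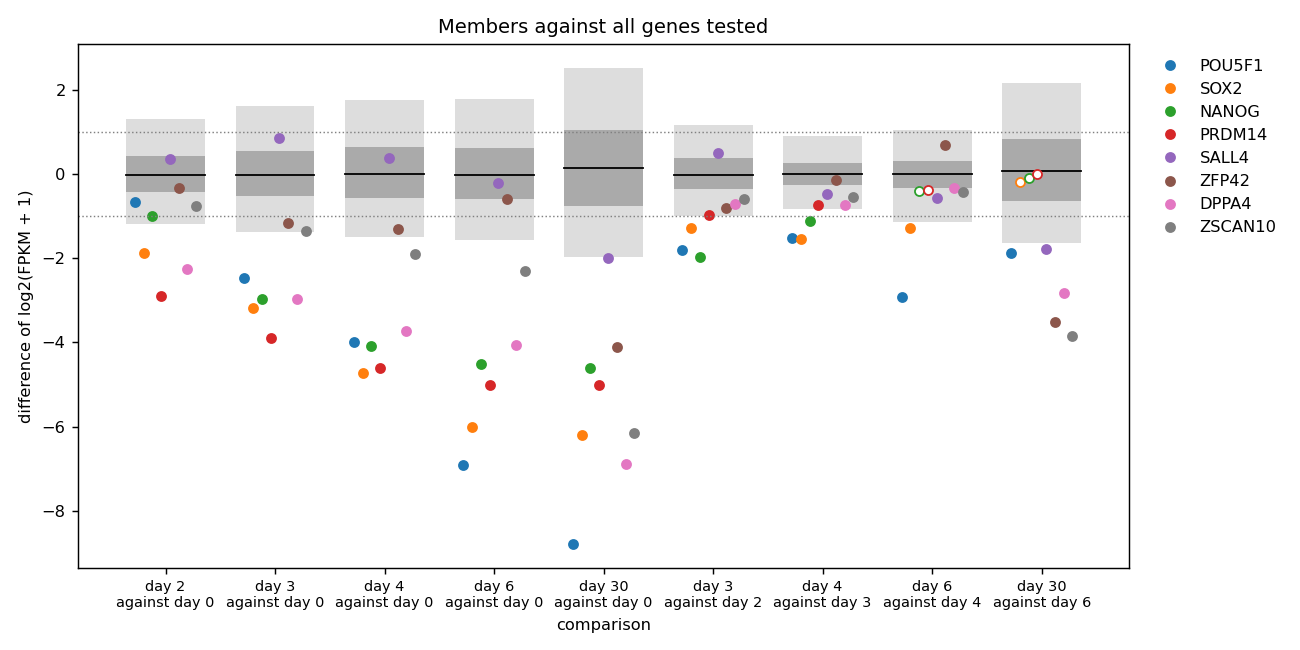
Difference of log2(FPKM + 1) of each member (points, open where the FPKM was under 1 in both libraries) in 9 comparisons, over the 5th to 95th (light) and 25th to 75th (dark) percentiles and the median (line) of all genes tested, with dotted lines at the calling rule of 1. Against day 0 the points of POU5F1, SOX2, NANOG, PRDM14 and DPPA4 lie below the light band from day 3 on, and those of SALL4 lie inside it through day 6.

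Related copies of POU5F1 and NANOG have rows of their own in the table. NANOGP8, an intronless NANOG copy on chromosome 15, is identical to the main NANOG transcript in 913 of 918 bases, and its row had 61.9, 19.9, 4.56, 0.689 and 0.126 FPKM on days 0, 2, 3, 4 and 6 and 0 at day 30. NANOGP1 is more distant, at 84.9% identity over the aligned bases. NANOGP8 and NANOGP1 together held 35.8% (34.0 to 37.6, exact Clopper-Pearson) of the reads of these 2 rows and NANOG at day 0 and 29.1% (26.7 to 31.6) at day 2. With their reads added, NANOG stood at 43.5% of day 0 on day 2 in place of 48.0% and at 8.15% on day 3 in place of 9.04%. For POU5F1 the copies POU5F1B, POU5F1P3 and POU5F1P4, between 97.2% and 98.1% identical over the aligned bases, held 3.12% of the joint reads at day 0 and 3.03% at day 2. At day 30 they held 52 reads against 10 in POU5F1 itself, 43 of them in POU5F1P3, and with them POU5F1 would be at 0.299% of day 0 in place of 0.0498%. Its step from day 6 to day 30 would then be 2.33-fold lower (1.74 to 3.15) in place of 13.1-fold. How the counting treated reads that match several places is not given in the sources used here. At the other strand of the POU5F1 row, the overlapping gene TCF19 had 5.91 FPKM at day 0 and 0.618 at day 30.

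Family relatives did not move as a block with the members. Of the 3 other SALL genes, SALL1 had 22.3, 48.8, 99.3, 111, 53.3 and 1.60 FPKM over the 6 days and, like SALL4, was highest in the middle of the course. SALL3 was highest at day 2, with 28.6 FPKM against 7.28 at day 0, and SALL2 was highest at day 0, with 64.2 FPKM, and fell to 31.2 at day 2. Of 7 SOX relatives 6 were tested at day 2, where SOX17, the endoderm factor, rose from 0 to 79.4 FPKM and SOX21, a neural relative, fell from 1.51 to 0.134. SOX3, of the same subgroup as SOX2, had 6.04 FPKM at day 0, 2.97 at day 2, 0.380 at day 6 and 0 at day 30. SOX4 lay between 47.5 and 85.0 FPKM in all 6 libraries. Among POU relatives POU3F1 had 13.6 FPKM at day 0, 6.71 at day 2 and 0.371 at day 6, and POU2F1, a widely expressed octamer-binding factor, had 14.9, 10.3 and 7.53 on the same days. DPPA2, the partner of DPPA4 in the same chromatin complex, lies 9624 bases from it on the same strand and had 13.6, 2.92, 2.22, 2.65, 0.669 and 0.702 FPKM. YY1, the widely expressed relative of ZFP42, lay between 15.8 and 30.0 FPKM and was called in none of the 5 comparisons with day 0. PRDM1, a relative of PRDM14 active in germ cells and endoderm, went from 0.377 to 4.50 FPKM between days 0 and 2.

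**Figure D5:**
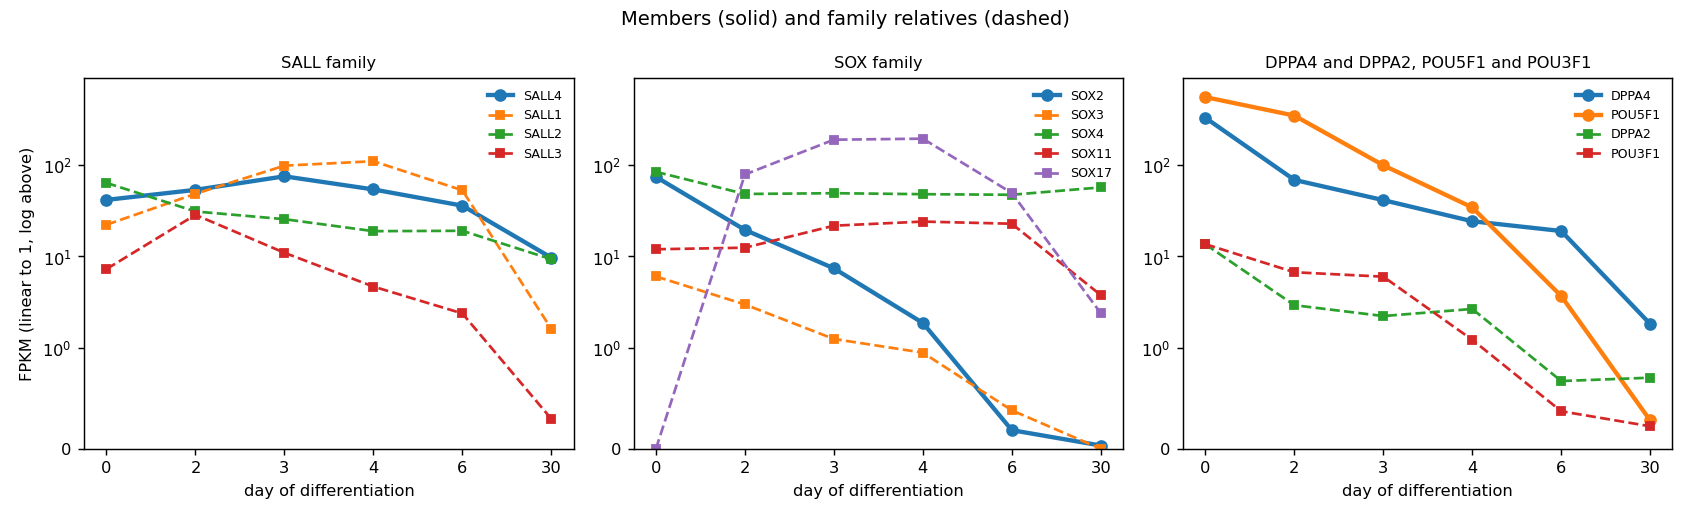
FPKM (linear to 1, log above) by day (spaced evenly) of members (solid) and family relatives (dashed) in 3 panels, 1 library per day. SALL1 and SALL4 are highest in the middle of the course, SOX2 and SOX3 decline while SOX17 appears at 79.4 FPKM on day 2, and DPPA2 declines beside DPPA4.

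Of 47 further genes of the pluripotency network, 42 were tested at day 2, and 16 were called lower and 7 higher than at day 0, against 7.75% lower and 8.78% higher over all genes. Their median difference was -0.49, against -0.03 over all genes. At day 6 it was 24 lower and 2 higher of 41 tested, against 13.1% and 14.9%, with medians of -1.07 and -0.02. At day 30 it was 30 lower and 4 higher of 41, against 19.1% and 25.9%, with medians of -2.36 and 0.13. The counts of the smaller lists that follow stand against these same shares. Among stem cell RNA-binding and growth genes 6 of 11 fell by day 2 and 1, GLIS1, rose. Those that fell included POLR3G, an RNA polymerase III subunit, from 63.8 to 4.99 FPKM and L1TD1, an RNA-binding protein, from 288 to 71.4, whereas LIN28A had 380.2 FPKM at day 0 and 275 at day 6. Genes known as direct targets of POU5F1 and SOX2 went both ways at day 2, 1 of 7 lower and 2 higher. UTF1, a chromatin factor of stem cells, fell from 28.7 to 7.30 FPKM, while the growth factors FGF4 (0.468 to 33.4 FPKM) and NODAL (1.95 to 49.3 FPKM) rose. By day 6 FGF4 was at 0.0716 and NODAL at 1.03 FPKM. Of 10 primed-state genes, 4 fell and 2 rose by day 2, and all 10 were called lower at day 30. Among them OTX2 rose from 4.14 to 39.8 FPKM, and THY1 fell from 82.4 to 11.2 and FOXD3 from 13.9 to 2.74. Of 12 naive-state genes, 7 were tested at day 2, 2 rose and 1 fell. At day 30, 4 of 8 tested rose, namely KLF2 (0.614 to 73.5 FPKM), KLF4 (2.18 to 19.4 FPKM), KLF5 (3.38 to 31.4 FPKM) and TBX3 (0.0694 to 28.8 FPKM), all of which also act in differentiated tissues, and 2 fell, DPPA3 and SUSD2. Of 7 surface markers 4 fell by day 2 and none rose. CD24 had 972 FPKM at day 0, 181 at day 2 and 326 at day 6, and PODXL had 137, 62.0 and 270, so both fell at first and stood higher again on day 6.

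Of 13 subunits of NuRD, the corepressor bound by SALL4, 2 were called higher and 1 lower at day 2, where 8.78% of all genes were called higher and 7.75% lower. At day 6 it was 2 higher and none lower, and at day 30 2 in each direction. Of 5 partner genes of PRDM14, none was called at days 2 and 6, and 2 were called higher and 1 lower at day 30, against 25.9% and 19.1% of all genes. MTA2 went from 15.1 to 47.8 FPKM and MTA3 from 18.1 to 8.35 by day 2, and HDAC1 lay between 33.5 and 54.4 in all libraries. CBFA2T2, a corepressor that binds PRDM14, had 9.45 FPKM at day 0, 7.99 at day 2 and 20.2 at day 30, so its level and that of PRDM14 moved apart. The Polycomb subunits EZH2, SUZ12 and EED were not called in any comparison with day 0 through day 6.

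Beside DPPA2, which fell with DPPA4 by day 2, other chromosomal neighbours had their own levels. TRIML2, 86223 bases from ZFP42, went from 24.98 to 0.753 FPKM between days 0 and 2, while ZFP42 was at 78.8%. ATP9A, 13697 bases from SALL4, was lowest at day 0 with 1.36 FPKM and highest at day 30 with 10.8. NANOGNB beside NANOG had at most 1 read per library, and SLC2A14 on its other side lay between 1.63 and 8.92 FPKM. IL32, 6698 bases from ZSCAN10, was at or below 0.257 FPKM through day 6 and at 25.4 at day 30.

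The 3 protein-coding genes with the nearest profile to each member were sought among 9718 genes that reached an FPKM of 5, by the root mean square distance of centred log2(FPKM + 1) over the 6 days. The nearest to NANOG was NEFL, a neurofilament gene (28.6, 9.74, 2.30, 0.380, 0.0935 and 0.0748 FPKM, distance 0.143). The nearest to SOX2 was the NANOG copy NANOGP8 (distance 0.295), to PRDM14 POLR3G (0.322) and to DPPA4 the DNA methyltransferase DNMT3B (0.352). SALL4 was nearest to the replication genes ORC6 (0.193) and CDT1 (0.216) and the glypican GPC2 (0.207). ZFP42 was nearest to RAD51AP1 (0.234), a DNA repair gene, LIN28B (0.267) and AIF1L (0.275). ZSCAN10 had DNMT3B as its nearest at 0.530. The nearest to POU5F1 was L1TD1 at 1.25, and over the 5 days without day 30 it was SFRP2 at 0.540. The distance also counts the size of a change, and POU5F1 had the largest of the members, -8.78 between days 0 and 30. With 6 points and 1 library each, these lists are descriptions, and 8 of the 24 names were also found with a pseudocount of 0.1 and 4 of 24 without day 30. None of the names nearest to SALL4 or to DPPA4 was found again in either alternative.

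At day 30 SALL4 was still at 9.70 FPKM, DPPA4 at 1.81 and ZFP42 at 1.52, and the other members were at or below 0.280 FPKM. SALL4 had 692 reads, DPPA4 112, ZFP42 50, POU5F1 10, ZSCAN10 4 and SOX2 1. NANOG and PRDM14 had none, and the upper ends of their 95% counting intervals were 0.0554 and 0.122 FPKM. Of 7 germ cell markers 3 were at 0 in that library, DDX4, DAZL and DPPA3, and their summed level was 4.13 FPKM against 14.1 at day 0. Of 7 neuroectoderm markers 4 were at 0, SOX1, SOX3, OTX2 and HES5, with a sum of 13.9 FPKM of which NES made 13.8. Endoderm markers summed to 357 FPKM, of which AFP made 299, and 7 of 8 were at or above 1. Their part in the remaining SALL4, ZFP42 and DPPA4 reads was not tested.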

How the data were processed

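The authors deposited 1 table of FPKM values for 58735 genes and 6 libraries, 1 per day. The submitters' processing notes name CASAVA, HISAT2 and featureCounts 1.5.0-p3, while the sources used here give no settings, genome build or strand. All 58735 gene positions equal those of GENCODE release 29 on GRCh38. In each library the products of FPKM and length fell on whole steps of 1 unit, within 0.001 read for 100% of values above 0, which gave the reads. The denominators behind the deposited FPKM stood between 0.826 (day 30) and 1.12 (day 6) times the recovered totals.

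Differences were taken on log2(FPKM + 1), a pseudocount of 1 that understates the change of low genes, with a minimum FPKM of 1 and a threshold of 1. Fold intervals are exact conditional binomial and level intervals exact Poisson, at 95%. Reads are not molecules, so these intervals cover counting error only. The calling rule, the intervals and the recovery of reads were tried on simulated data that held counting error only. Spread between libraries was not simulated. Python 3.11.15, scipy 1.17.1 and Biopython 1.88 were used.

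Members and lists were chosen with earlier results of these data known. Named genes are the members, list genes with large or small differences, the 3 nearest profiles per member, neighbours, overlapping rows and copies. Alternatives were a pseudocount of 0.1, no minimum, a minimum of 5, a threshold of 2, intervals that exclude 1, protein-coding genes only, and scaling by read totals, TPM and upper quartile, each set to the same mean magnitude. Adding the reads of copies was chosen after seeing the data. The values of 1 gene of the network lists are not reported here.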

Additional observations from a re-analysis of the deposited data

How the results depend on the processing

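No paired analysis was possible because each day has 1 library. No called ratio of a member changed direction under another scaling. The count of members called lower stayed within 1.5 times of its value in all but 5 cases. With a threshold of 2 it became 0 from day 2 to day 3, 0 from day 3 to day 4, 1 from day 4 to day 6 and 3 from day 6 to day 30. With a minimum FPKM of 5 it became 1 from day 4 to day 6. Under TPM scaling 1 member, SALL4, was called higher on day 3 against day 0. ZFP42 lost its call there, and NANOG gained one on day 2 under upper-quartile scaling. Scaling moved the median difference of all genes, for day 30 against day 6 from 0.08 to -0.33 with read totals and -0.21 with TPM, and with TPM from -0.02 to 0.31 when day 6 was compared with day 0 and from -0.01 to 0.26 when day 3 was. The share of lower calls among all calls went with TPM from 44.6% to 28.4% for day 3 against day 0, from 46.8% to 27.8% for day 6 against day 0, from 41.1% to 25.4% for day 3 against day 2, from 54.9% to 42.6% for day 6 against day 4 and from 42.2% to 56.9% for day 30 against day 6. With read totals it was 36.1% when day 6 was compared with day 0 and 62.6% when day 30 was compared with day 6.

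For the 47 network genes, a threshold of 2 gave 4 lower on day 2, 12 lower and 3 higher on day 3, 14 lower and 3 higher on day 4 and 1 higher on day 6, all against day 0. From day 2 to day 3 it gave 3 lower and 1 higher, from day 3 to day 4 1 lower and 0 higher, and from day 4 to day 6 3 lower and 0 higher. A minimum FPKM of 5 gave 1 higher on day 6 against day 0 and 3 lower and 1 higher from day 3 to day 4. The count of higher genes on day 6 against day 0 was 5 with read totals and 6 with TPM. TPM gave 4 higher from day 2 to day 3, and a pseudocount of 0.1 gave 6 higher from day 4 to day 6. The higher threshold and minimum admit fewer genes by construction, and the cause of the other changes was not tested.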

Other observations

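Of 5 long noncoding RNAs of the stem cell state, 3 were tested at day 2, where 2 were called lower and 1 higher, and at day 30 all 3 tested were called lower. ESRG, a stem cell transcript, had 591 FPKM at day 0, 133 at day 2, 17.3 at day 3, 3.00 at day 4, 0.239 at day 6 and 0 at day 30. LNCPRESS1, a noncoding RNA of undifferentiated cells, had 25.9, 3.37, 0.161, 0.0730, 0 and 0 FPKM on the same days. LINC00458 went the other way at first, from 2.28 FPKM at day 0 to 20.0 at day 2, and was at 1.54 at day 6 and 0 at day 30. LINC-ROR was at or below 0.367 FPKM in every library.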
